A study of Mus musculus with 12 samples.

Results

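The 7 genes described here encode the metallothioneins Mt1 and Mt2, the zinc-sensing transcription factor Mtf1, the exporters Slc30a1 and Slc30a10, and the importers Slc39a14 and Slc39a8. They were chosen by name with the difference between the PZH and control groups already in view, so that difference is given as a description, without a test, for each of them. All 7 were found in the protein-coding table, with 19 transcripts of the 29876 that the annotation assigns to 14188 genes. The level of a gene is the sum of the FPKM (sequenced fragments scaled to transcript length and to the size of the library) of its listed transcripts. Livers were taken in week 8 from 6 mice with PZH (the PZH group) and 6 mice without it (the control group). Mice of both groups were male, were 6 weeks old at the start and received 10 µl/g of a mixture of CCl4 and corn oil into the peritoneum 2 times per week. CCl4 is a solvent that injures hepatocytes and leads to hepatic fibrosis, and every mouse sequenced had received it. Pien Tze Huang (PZH) is a Chinese herbal and animal preparation, which the PZH group received by gavage at 0.25 mg/g 1 time per day while the control group received water. The labels name the strain as C57BL/8, whereas the methods of the study name C57BL/6J. The labels give no batch.

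Metallothioneins are small cysteine-rich proteins that bind zinc and copper in the cell and buffer the free metal. Mtf1 binds zinc and then occupies short DNA elements, the metal response elements, in the promoters of metallothionein genes and of Slc30a1. Transporters of the Slc30 family move zinc out of the cytosol and those of the Slc39 family move it in. In the liver, metallothionein and Slc39a14 are also known to be induced in inflammation.

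The promoters of Mt1, Mt2 and Slc30a1 are shown because these are the members best known as targets of Mtf1. Windows of 300 bases, with 250 before and 50 after the RefSeq start site (GRCm38.p6), were searched on both strands for the core of the metal response element, written as TGCACNC or TGCGCNC. Upstream stretches that end before the annotated transcripts begin are printed 5′ to 3′ on the plus strand, with matches in capitals, for Mt1 at chr8:94178839-94179081, Mt2 at chr8:94172368-94172617 and Slc30a1 at chr1:191906531-191906766.
Mt1: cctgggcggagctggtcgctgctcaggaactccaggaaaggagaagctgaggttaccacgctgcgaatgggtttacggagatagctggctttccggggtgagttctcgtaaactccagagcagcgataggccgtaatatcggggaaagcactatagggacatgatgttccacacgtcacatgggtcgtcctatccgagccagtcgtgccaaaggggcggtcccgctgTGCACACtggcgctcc
Mt2: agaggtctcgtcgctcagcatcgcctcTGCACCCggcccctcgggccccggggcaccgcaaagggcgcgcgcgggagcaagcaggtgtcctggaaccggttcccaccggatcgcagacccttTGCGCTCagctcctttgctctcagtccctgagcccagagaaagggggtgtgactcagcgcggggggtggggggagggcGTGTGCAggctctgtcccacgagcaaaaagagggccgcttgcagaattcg
Slc30a1: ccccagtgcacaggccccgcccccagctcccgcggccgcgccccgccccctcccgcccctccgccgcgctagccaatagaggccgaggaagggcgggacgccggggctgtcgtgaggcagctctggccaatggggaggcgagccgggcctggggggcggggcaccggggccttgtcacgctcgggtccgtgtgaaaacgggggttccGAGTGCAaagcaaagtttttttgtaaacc

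The window of Mt2 held 4 matches, that of Mt1 held 3 and that of Slc30a1 held 2. Of these, 3 lie in the printed stretch of Mt2, 1 in that of Mt1 and 1 in that of Slc30a1, and the other 2 of Mt1 and the remaining match of Mt2 and of Slc30a1 lie just after the RefSeq start site. Among 32851 promoter windows of the same length, 25.7% held at least 1 match, 7.11% at least 2, 1.97% at least 3 and 0.517% at least 4. The window of Slc30a10 held 3 matches, of which a pair on opposite strands overlap each other. The window of Mtf1 held 0, and the 2 windows of Slc39a8 held 0 and 1. Slc39a14 has no entry in the promoter table. A match describes letters in a window and not a bound site.

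The metallothioneins had the widest gap between the groups among the 7 genes. Mt1 had an FPKM of 204 to 901 in the control group (median 604) and of 46.5 to 87.5 in the PZH group (median 62.4). The lowest control mouse thus stood above the highest PZH mouse. The group means were 554 ± 292 (SD, n = 6) and 65.7 ± 16.7 (SD, n = 6), which is 8.43-fold lower in the PZH group. Mt2 had an FPKM of 97.6 to 456 in the control group (median 333) and of 13.9 to 39.7 in the PZH group (median 25.4), again without overlap. Its means were 302 ± 145 (SD, n = 6) and 27.1 ± 10.2 (SD, n = 6), which is 11.1-fold lower in the PZH group.

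On the log2(FPKM + 1) scale the difference between the PZH and control groups was -2.88 (SE 0.36) for Mt1 and -3.33 (SE 0.38) for Mt2. In the order of all 14188 genes from the most negative difference upward, Mt2 stood at place 4 and Mt1 at place 6. By mean level, Mt1 was at place 69 of the 14188 genes in the control group and at place 629 in the PZH group. Mt1 and Mt2 together made up 0.0907% to 0.399% of all protein-coding FPKM in a control mouse and 0.0178% to 0.0337% in a PZH mouse. In whole tissue, fewer cells that express a gene and less of its RNA per cell cannot be told apart.

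**Figure D1:**
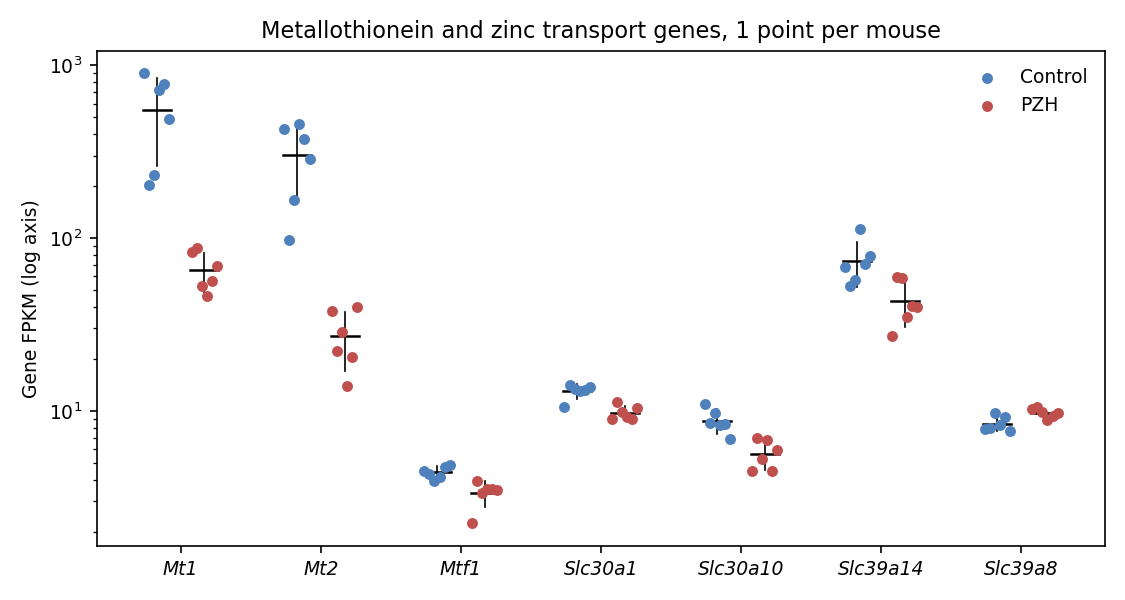
Gene FPKM (log axis) of the 7 genes, with 1 point per mouse, the mean as a horizontal line and the SD as a vertical line for 6 control (blue) and 6 PZH (red) mice. Mt1 and Mt2 are the genes with the widest separation, from 204 or more to 87.5 or less for Mt1, while Slc39a8 is the gene whose PZH mean lies above its control mean.

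Mt1 and Mt2 are neighbouring genes on chromosome 8 of GRCm38, with Mt2 (ENSMUSG00000031762) at chr8:94172664-94173568 and Mt1 (ENSMUSG00000031765) at chr8:94179082-94180327. How reads that match both genes were counted is not given in the sources used here. The transcript Mt1-201 (ENSMUST00000034215) carried 95.5% to 99.4% of the Mt1 level in every mouse. The minor transcript Mt1-202 (ENSMUST00000211807), annotated as 1 exon of 1085 bases, had an FPKM of 0.466 to 1.80 in the PZH group. In the control group it stood at 29.0, 18.1 and 13.8 in mice 4, 5 and 6 and at 3.99, 0.990 and 1.81 in mice 1, 2 and 3. Mt2 was listed with 1 transcript, Mt2-201 (ENSMUST00000034214).

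The control mice spread widely in both genes, and it was the same mice that stood low. Control 2 and control 3 had a Mt1 FPKM of 204 and 232, against 492 to 901 in the other 4 control mice. For Mt2 these mice had 97.6 and 167, against 289 to 456. Within the control group Mt1 and Mt2 were correlated with a Pearson r of 0.96 (two-sided exact permutation test over 720 orders, p = 0.00556, adjusted p = 0.0667 over 12 relations, n = 6) and a Spearman rho of 0.83 (exact permutation p = 0.0583, adjusted p = 0.233). The adjusted p is above the threshold of 0.05, and without control 2 and control 3 the r was 0.83 over 4 mice. After scaling of each mouse to the typical gene (median-ratio scaling) r was 0.96 with an adjusted exact permutation p of 0.0417. Within the PZH group the r between both genes was 0.57 (exact permutation p = 0.235, adjusted p = 0.563, n = 6). The ratio of Mt1 to Mt2 was 1.39 to 2.11 in the control mice and 1.73 to 3.93 in the PZH mice, highest in PZH 2.

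**Figure D2:**
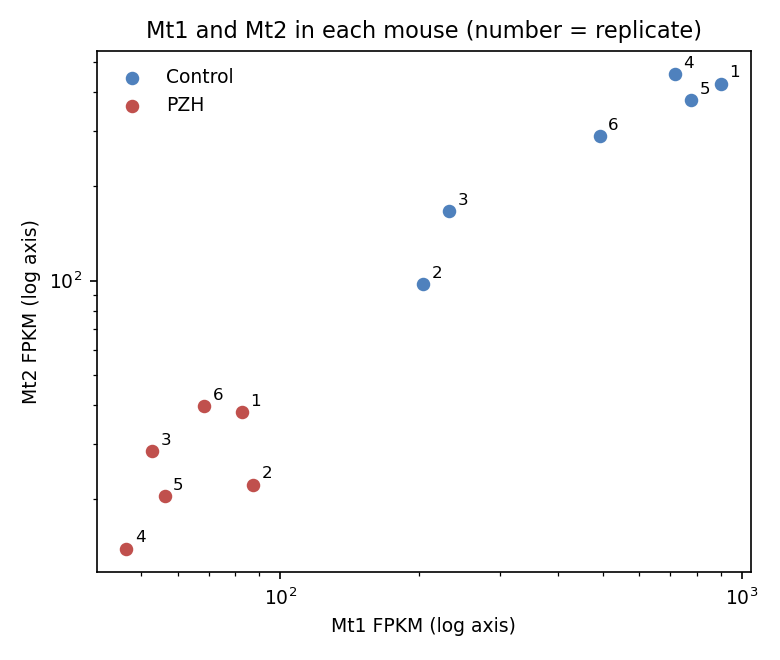
Mt2 FPKM against Mt1 FPKM (both axes log), with 1 point per mouse and its replicate number, for 6 control (blue) and 6 PZH (red) mice. All control mice lie above and to the right of all PZH mice, and control 2 and control 3 are the control mice nearest to the PZH group, with a Mt1 FPKM of 204 and 232.

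Mtf1 (ENSMUSG00000028890, chr4:124802104-124849800), the transcription factor that senses zinc, was a gene of low level. Its FPKM was 3.94 to 4.87 in the control group (median 4.42) and 2.24 to 3.91 in the PZH group (median 3.50), without overlap but with 3.94 and 3.91 next to each other. The difference on the log2(FPKM + 1) scale was -0.33 (SE 0.09), and -0.17 (SE 0.08) after median-ratio scaling. PZH 1 stood apart at 2.24, below 3.37 in the next PZH mouse. The sum was carried by the transcripts Mtf1-201 (ENSMUST00000030723) and Mtf1-202 (ENSMUST00000106193), which traded places between mice. Mtf1-201 was listed at 0 in PZH 5, where Mtf1-202 had 3.16, and Mtf1-202 was listed at 0 in PZH 2, where Mtf1-201 had 3.48.

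Among the exporters, Slc30a1 (ENSMUSG00000037434, chr1:191906767-191913247) at the cell surface is the main route by which zinc leaves a cell. It had an FPKM of 10.6 to 14.1 in the control group (median 13.3) and of 9.01 to 11.2 in the PZH group (median 9.56). The overlap came from control 1, which at 10.6 stood below the other 5 control mice (13.1 to 14.1) and among the PZH mice. The difference was -0.38 (SE 0.08) on the log2(FPKM + 1) scale and -0.19 (SE 0.07) after median-ratio scaling. Within the control group Slc30a1 and Mt1 ran in opposite order, with a Spearman rho of -0.89 (two-sided exact permutation test, p = 0.0333, adjusted p = 0.233, n = 6) and a Pearson r of -0.62 (exact permutation p = 0.160, adjusted p = 0.483). Without control 2 and control 3 the r was -0.77 over 4 mice. After median-ratio scaling the r was -0.79 with an adjusted exact permutation p of 0.0417. In the PZH group the r was 0.47 (adjusted exact permutation p = 0.569), and -0.18 without PZH 2 and PZH 4.

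Slc30a10 (ENSMUSG00000026614, chr1:185454848-185468762), which despite its family exports manganese, had an FPKM of 6.84 to 11.0 in the control group (median 8.44) and of 4.48 to 6.93 in the PZH group (median 5.61). The only overlap was that of control 6, at 6.84, with PZH 2, at 6.93. The difference was -0.56 (SE 0.12) on the log2(FPKM + 1) scale, and -0.38 (SE 0.13) after median-ratio scaling. Both exporters were listed with 1 transcript each.

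Slc39a14 (ENSMUSG00000022094, chr14:70303469-70351425) imports zinc, manganese and iron and is the most abundant of the 4 transporters in these livers. Its FPKM was 52.6 to 114 in the control group (median 69.4) and 27.0 to 59.7 in the PZH group (median 40.4). PZH 2 and PZH 3, at 59.7 and 58.7, overlapped control 2 and control 3, at 52.6 and 57.6. The means were 73.6 ± 21.8 (SD, n = 6) and 43.5 ± 13.1 (SD, n = 6), a log2 difference of -0.75 (SE 0.21), and -0.55 (SE 0.19) after median-ratio scaling.

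This overlap lay in 1 of its 7 listed transcripts. Its main transcripts are Slc39a14-201 (ENSMUST00000022688) and Slc39a14-202 (ENSMUST00000068044), with 10 exons each. Slc39a14-202 had an FPKM of 42.1 to 60.3 in the control group (mean 49.2 ± 6.41, SD, n = 6) and of 19.4 to 29.5 in the PZH group (mean 25.8 ± 3.80, SD, n = 6), without overlap. Slc39a14-201 did not follow the groups. It stood at 60.9 in control 4, 32.0 in PZH 2 and 31.7 in PZH 3, and at 4.58 to 10.4 in the other 9 mice. It was thus 53.6%, 53.6% and 54.0% of the gene in these 3 mice and 11.5% to 21.1% in the rest. In the same 3 mice Slc39a14-202 was at 45.4, 25.4 and 24.2, near the other mice of each group. The last exons, which overlap each other, have 516 bases in Slc39a14-201 and 3344 bases in Slc39a14-202. Whether the transcripts also differ in their other exons was not examined. Reads that fall on shared exons were divided between transcripts by StringTie. The summed FPKM of 5 lymphocyte and neutrophil markers was 126 in PZH 3 and 61.7 in control 4, against 13.2 to 29.8 in the other 10 mice, which include PZH 2 at 14.7. Most of the 126 in PZH 3 was S100a8 (76.0) and S100a9 (40.6), and S100a8 was 30.6 of the 61.7 in control 4. Whether these marker levels bear on Slc39a14-201 was not tested.

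When Slc39a14-201 was left out of the sum, Slc39a14 had 45.5 to 68.5 in the control group and 21.3 to 32.7 in the PZH group, without overlap. The log2 difference was then -0.96 (SE 0.12, pooled over both groups outside the limma fit). The short transcript Slc39a14-204 (ENSMUST00000139284) had 2.16 to 7.38 in the control group and 1.47 to 2.47 in the PZH group, with overlap between control 2 and PZH 5.

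**Figure D3:**
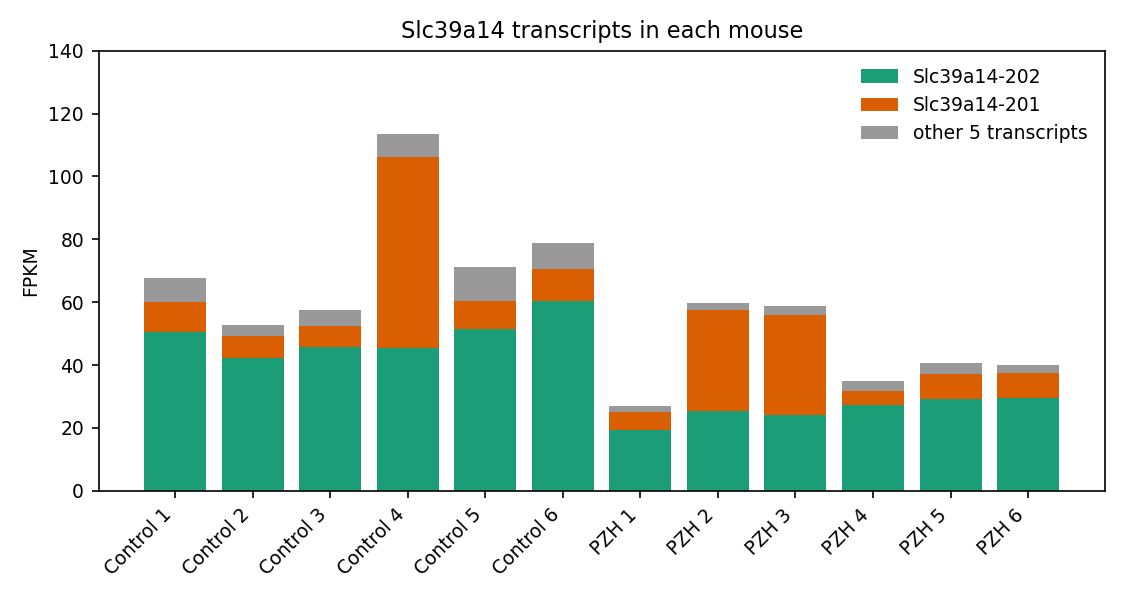
FPKM of Slc39a14 in each of the 12 mice, stacked by transcript (green, Slc39a14-202; orange, Slc39a14-201; grey, the other 5 transcripts). The green part is 42.1 or more in control mice and 29.5 or less in PZH mice, and the orange part is large in control 4, PZH 2 and PZH 3.

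Slc39a8 (ENSMUSG00000053897, chr3:135825657-135888572), a close relative of Slc39a14 and an importer of the same metals, was the 1 member with a higher mean in the PZH group. Its FPKM was 7.67 to 9.74 in the control group (median 8.14) and 8.89 to 10.5 in the PZH group (median 9.74). Control 3 and control 5, at 9.74 and 9.16, stood among the PZH mice. The log2 difference was 0.19 (SE 0.07), and 0.37 (SE 0.07) after median-ratio scaling. The transcript Slc39a8-201 (ENSMUST00000029810) carried 80.3% to 90.4% of the level in the control group and 87.6% to 95.7% in the PZH group. The minor transcript Slc39a8-205 (ENSMUST00000167390) went the other way, with a mean of 1.01 ± 0.240 (SD, n = 6) in the control group and 0.621 ± 0.180 (SD, n = 6) in the PZH group. Within the PZH group Slc39a8 and Mt1 had a Pearson r of 0.89 (two-sided exact permutation test, p = 0.0208, adjusted p = 0.125, n = 6), and within the control group -0.23 (adjusted p = 0.917, exact permutation).

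As deposited, 6 of the 7 genes had a lower mean in the PZH group and 2 (Mt1 and Mt2) differed by more than 2-fold. In 3 (Mt1, Mt2 and Mtf1) the PZH values lay wholly below the control values. Across all 14188 genes as deposited, the groups did not overlap for 24.3%, with 17.9% wholly lower and 6.46% wholly higher in the PZH group. The factors by which median-ratio scaling divides a mouse were 0.880 to 0.990 in PZH mice and 1.04 to 1.11 in control mice. The gap of Mtf1, between 3.94 in control 3 and 3.91 in PZH 2, is narrower than that between these factors. After scaling the groups thus overlap in Mtf1. A 2-fold difference with an unadjusted P value below 0.05, the criteria of the study, was met by 4.02% of all genes, 1.52% higher and 2.50% lower. Of the 19 transcripts, 3 (Mt1-201, Mt2-201 and Slc39a14-202) lay wholly lower and 0 wholly higher, as did 8.58% and 3.41% of all 29883 transcripts. The same 2-fold criteria were met by 5 of the 19, and by 3.23% of all transcripts, 1.99% downward. Since the members were chosen on this contrast, nothing is read from these counts. A mean FPKM below 1 in both groups was found for 6 of the 19 transcripts.

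The other genes of zinc transport were tested in the limma fit over all 14188 genes, with Benjamini-Hochberg adjustment over all of them. In this fit 44.8% of all genes passed the adjusted threshold of 0.05, 12.7% higher and 32.1% lower in the PZH group. After median-ratio scaling 39.2% passed, 20.6% higher and 18.6% lower, and the median difference of all genes moved from -0.11 to 0.0055 on the log2 scale. Of the 20 other members of both families, 17 were listed, and 8 of these fell, 0 rose and 9 did not pass, with 1 of the 8 (Slc30a9) near the threshold. The median difference over the 17 was -0.19, beside -0.11 over all genes. After median-ratio scaling 6 of the 17 were lower, 1 was higher and 10 did not pass, with a median of -0.13.

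The 3 largest falls exceeded 2-fold, a size that 2.50% of all genes reached downward with an unadjusted P value below 0.05. Slc39a6, an importer at the cell surface, had 2.90 to 4.97 in the control group and 0.861 to 1.54 in the PZH group (log2 difference -1.26, SE 0.12, limma adjusted p = 1.56e-05). Slc30a4, which loads zinc into vesicles, had 10.5 to 20.6 and 4.88 to 6.69 (log2 difference -1.28, SE 0.16, limma adjusted p = 6.05e-05). Slc30a7, which supplies zinc to the secretory pathway, had 9.26 to 13.0 and 2.40 to 8.39 (log2 difference -1.03, SE 0.24, limma adjusted p = 0.00390). In all 3 the groups did not overlap, and in Slc30a7 PZH 1 and PZH 2 were far below the other PZH mice, at 2.40 and 2.79 against 6.78 or more.

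Smaller falls were those of Slc30a5 and Slc39a7, which act in the secretory pathway, and of Slc39a1 at the cell surface. Slc30a5 had 20.9 to 29.6 in the control group and 11.8 to 14.3 in the PZH group (log2 difference -0.81). Slc39a1 had 49.4 to 64.6 and 29.3 to 38.7 (log2 difference -0.75), and Slc39a7 had 9.48 to 16.8 and 6.31 to 8.40 (log2 difference -0.60). These 3 also did not overlap between the groups, and all kept an adjusted p below the threshold after median-ratio scaling. Slc39a10 (log2 difference -0.40, limma adjusted p = 0.0205) fell as deposited, but after scaling it was at -0.25 (limma adjusted p = 0.125). Slc30a9 (-0.16, limma adjusted p = 0.0387) passed only narrowly. It missed the threshold under 12 of 18 alternatives without a change of direction and was at 0.0234 (limma adjusted p = 0.773) after median-ratio scaling. The 12 were the replicate block, the variance trend, the filter on the mean FPKM, the smaller pseudocount, and the omission of control 1, 2, 4, 5 or 6 or of PZH 1, 3 or 4, with a limma adjusted p of 0.0527 to 0.0839. Slc39a11 was at 0.17 (limma adjusted p = 0.217) and passed as higher only after scaling (0.37, limma adjusted p = 0.0137). The metallothioneins Mt3 and Mt4 are not listed in the table.

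Copper, the other metal that metallothionein binds, is handled by a different set of proteins. Of 8 such genes 3 rose, 2 fell and 3 did not pass, beside 12.7% higher and 32.1% lower over all genes. Ccs, which delivers copper to superoxide dismutase, had 14.7 to 24.1 in the control group and 28.9 to 44.9 in the PZH group (log2 difference 0.90, SE 0.13, limma adjusted p = 0.000152). Slc31a1, the copper importer, had 36.6 to 46.3 and 50.9 to 61.9 (0.38, limma adjusted p = 0.00145), and the groups overlapped in neither. Atp7b, which sends copper into bile, also rose (0.44, limma adjusted p = 0.0158). The copper chaperone Atox1 (-0.38, limma adjusted p = 0.0171) and the exporter Atp7a (-0.26, limma adjusted p = 0.00796) fell as deposited, but did not pass after median-ratio scaling (-0.18 and -0.09).

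**Figure D4:**
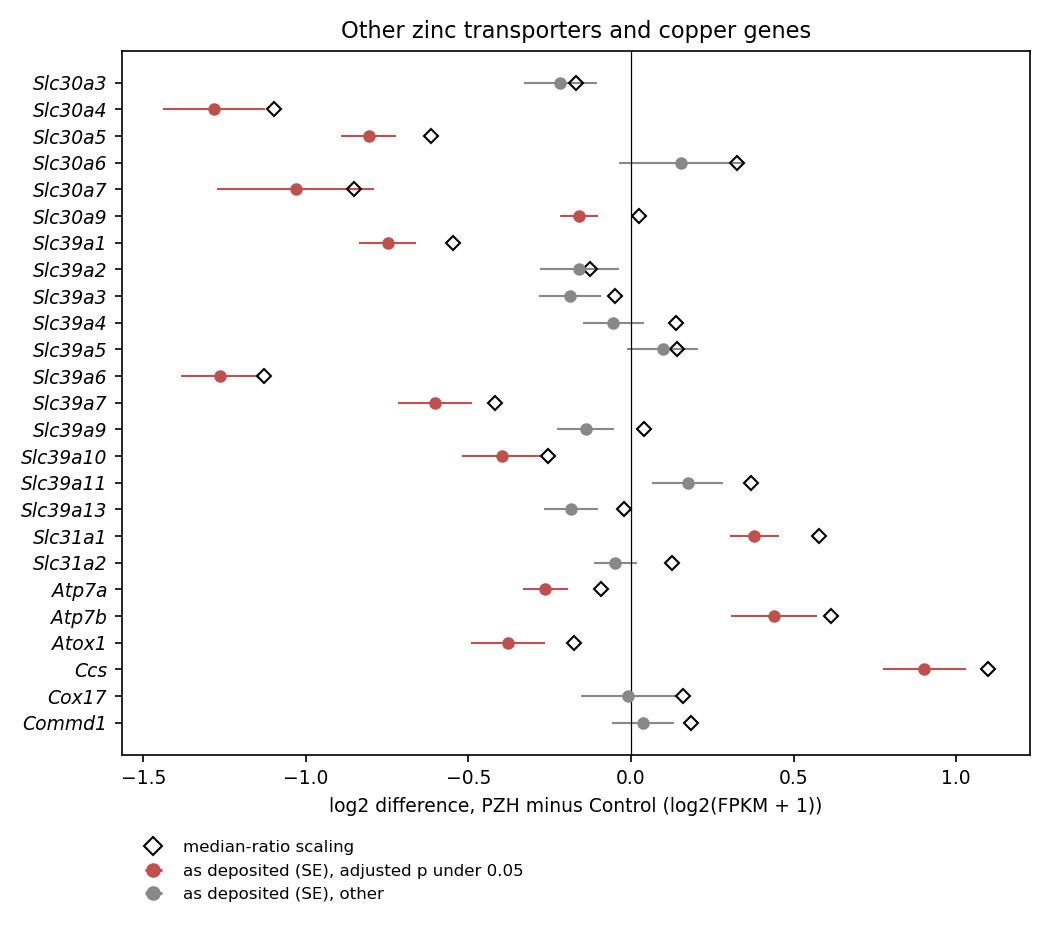
Difference between the PZH and control groups on the log2(FPKM + 1) scale for 17 other zinc transporters and 8 copper genes, as deposited (filled points with SE, red where the limma adjusted p is below 0.05) and after median-ratio scaling (open diamonds). Slc30a4, Slc39a6 and Slc30a7 lie furthest left and Ccs furthest right, and Slc30a9 is a called gene that crosses 0 with the scaling.

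Metallothionein genes are known to respond to several signals besides zinc, and genes that report on these signals are given beside them. The counts below stand beside 32.1% lower and 12.7% higher over all genes as deposited, and 18.6% and 20.6% after median-ratio scaling. Of 5 further genes known as targets of Mtf1, 3 fell, 1 rose and 1 did not pass, with 2 lower and 1 higher after median-ratio scaling. Ndrg1 (log2 difference -1.48, limma adjusted p = 0.000133) and Gclc (-1.90, limma adjusted p = 3.62e-05) fell, Slc39a10, which Mtf1 is known to repress, also fell, and Selenoh rose (0.89, limma adjusted p = 2.81e-05). Gclc is also counted among the Nrf2 targets and Slc39a10 among the zinc transporters. Of 19 acute phase genes 15 fell, 0 rose and 4 did not pass (median -1.06), and after median-ratio scaling 13 were lower and 1 higher. Their summed FPKM was 12864 to 25935 in the control group and 7908 to 8794 in the PZH group. Of 8 targets of Nrf2, the regulator of the response to oxidants, 6 fell, 0 rose and 2 did not pass (median -1.18), with summed FPKM of 419 to 743 in the control group and 177 to 274 in the PZH group, and after scaling 6 were lower and 1 higher. Control 2 and control 3, the control mice lowest in Mt1, were also the control mice lowest in this sum, at 457 and 419. The summed FPKM of the 5 Mtf1 targets was likewise lowest in them, at 250 and 202, against 382 to 469 in the other control mice. Gclc, which both lists hold, had a control mean of 296, beside control means of 597 for the Nrf2 sum and 350 for the Mtf1 target sum. The acute phase sum was lowest in control 2 (12864) and control 6 (13078), with 16058 in control 3. It was highest, at 18848 to 25935, in control 1, control 4 and control 5, the control mice highest in Mt1. The Nrf2, Mtf1 target and acute phase sums each departed in part from the order of Mt1. The sum of 8 glucocorticoid response genes was lowest in control 1 (269), the mouse highest in Mt1. Tat makes up most of that sum, with a control mean of 255 beside 358 for the sum. Of 8 genes of the glucocorticoid response 4 fell, 0 rose and 4 did not pass (median -0.68), among them Dusp1 (-1.40, limma adjusted p = 0.00387), while Tat was at 0.32 (limma adjusted p = 0.171), and after scaling 2 were lower and 2 higher. The part of these signals in the metallothionein levels was not tested.

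The tissue label was checked against 6 hepatocyte markers, of which 0 were at 0 in any mouse. Alb alone had 33360 to 46362 in the PZH group and 18015 to 29477 in the control group (log2 difference 0.68, limma adjusted p = 0.000697). The summed FPKM of the 6 was 46208 to 62378 in the PZH group and 27332 to 42434 in the control group, without overlap. Alb makes up most of this gap, with means of 38437 and 24059 beside 52382 and 35962 for the sum. Of the 6 markers 2 passed as higher and 0 as lower (4 and 0 after median-ratio scaling). Summed macrophage markers were 324 to 511 in the PZH group and 302 to 408 in the control group, those of stellate cells and myofibroblasts 85.7 to 141 and 71.3 to 121, and those of sinusoidal endothelium 58.3 to 72.4 and 64.6 to 74.9. Summed cholangiocyte markers were 5.40 to 7.60 and 11.9 to 18.8. Of these 4 only Sox9 fell, with a mean of 10.7 in the control group and 2.73 in the PZH group, and its gap makes up the gap of the sum. Krt19 was at -0.04 (limma adjusted p = 0.877), Krt7 at -0.04 (limma adjusted p = 0.684) and Epcam at 0.30 (limma adjusted p = 0.113) on the log2 scale. After median-ratio scaling Sox9 was lower and Epcam higher (0.38, limma adjusted p = 0.0433). As deposited 2 of 6 macrophage markers rose and 1 fell, 1 of 6 stellate cell markers rose and 2 fell, and 2 of 4 endothelial markers fell. After scaling these counts were 4 and 0, 2 and 2, and 0 and 1. Over all genes 12.7% were higher and 32.1% lower as deposited, and 20.6% and 18.6% after scaling. In limma 0 of 5 lymphocyte and neutrophil markers passed in either setting, and as deposited 0 had an unadjusted p below 0.05. The part of cell makeup in the levels of the 7 genes was not tested.

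**Figure D5:**
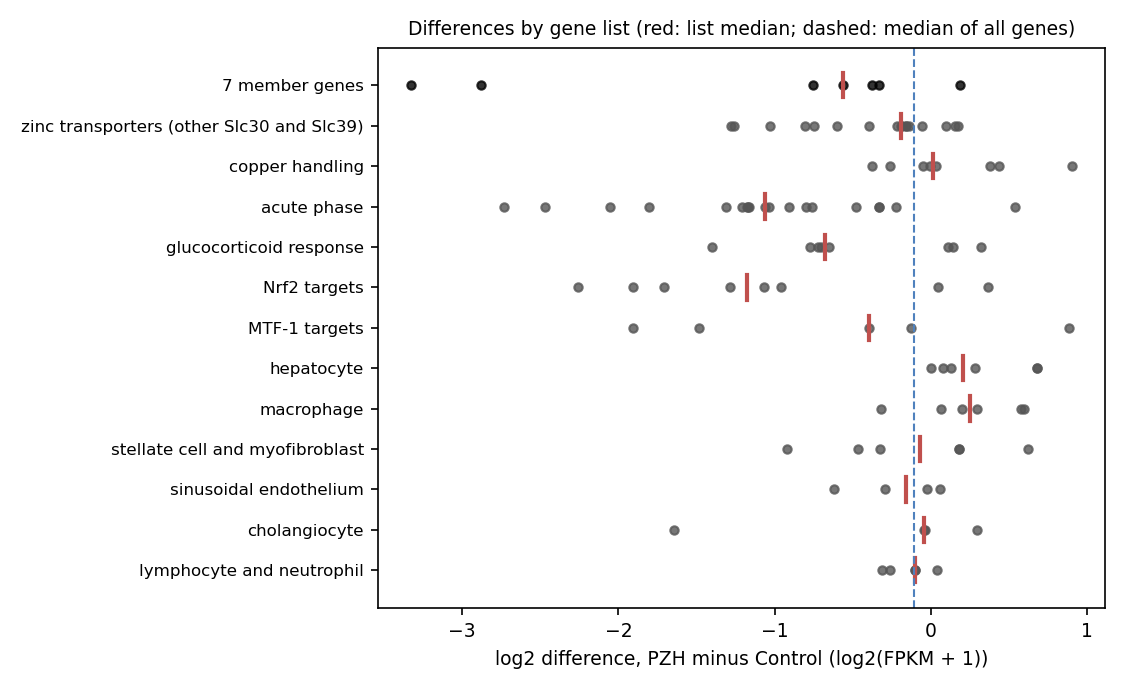
Difference between the PZH and control groups on the log2(FPKM + 1) scale for each gene (points) of the 7 described genes and of 12 lists, with the list median (red bar) and the median of all genes (dashed, -0.11). Mt1 and Mt2 lie at -2.88 and -3.33, and the medians of the acute phase and Nrf2 lists lie at -1.06 and -1.18.

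The genes most like Mt1 in how mice of the same group differed were sought among 10941 genes with a mean FPKM of at least 1. Likeness was the Pearson correlation of deviations from the group means over the 12 mice, which does not use the difference between the groups. The 5 closest were Osmr (0.93), Zfyve16 (0.93), Cdr2 (0.92), Specc1 (0.92) and Ppig (0.91), ahead of Mt2 at 0.87. Osmr, the receptor chain for oncostatin M, had an FPKM of 5.05 to 13.2 in the control group and 2.44 to 3.17 in the PZH group (log2 difference -1.33, SE 0.18, limma adjusted p = 0.000122). Zfyve16, Cdr2 and Specc1 fell as well, by 0.58, 0.98 and 0.67 on the log2 scale, and their groups did not overlap. Ppig was at 0.03 (limma adjusted p = 0.863), so likeness among mice of a group did not require a difference between groups. Over the 6 control mice alone the 5 genes had an r of 0.93 to 0.96 with Mt1, and over the 6 PZH mice 0.59 to 0.91. The 5 were picked as the highest of 10941 genes from these same values, so a high r follows from the choice. How high the top r would be without any relation was not tested.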

How the data were processed

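Liver RNA of 6 PZH and 6 control mice was sequenced as strand-specific, ribosomal RNA-depleted libraries with paired reads of 150 bp. Per the labels and the methods, the authors used Trimmomatic for trimming, HISAT2 (2.1.0) for alignment to GRCm38, and StringTie (1.3.5) with Ensembl release 95 for transcript levels. The authors deposited FPKM per transcript and mouse, on the linear scale, which are not read counts. The lncRNA table was not used.

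Transcripts were assigned to genes with GENCODE M21, which holds 29876 of 29883, and summed per gene. Without any filter, log2(FPKM + 1) of the gene sums was fitted by limma 3.58.1 in R 4.3.3. Single relations used exact permutation tests (Python 3.11.15, scipy 1.17.1). The smallest steps between low values imply 26.8 to 42.8 M fragments in a mouse, but read counts could not be derived reliably, so the spread between mice gives the precision. The members and all gene lists were chosen with earlier results of these data known. Named besides the members were zinc and copper genes that passed the adjusted threshold or a 2-fold change, and the 5 genes most like Mt1. Slc30a6, Slc39a11, Ndrg1, Gclc, Selenoh, Dusp1, Tat, Alb and Sox9 were named after their values were seen. In 200 genes of 14188 simulated with a log2 change of 1.5 in this comparison, 98% were recovered at the adjusted threshold, with 11 false calls among the unchanged genes. Krt19, Krt7, Epcam, S100a8 and S100a9 were also named after their values were seen. Alternatives were another pseudocount, a filter, 2 scalings, a variance trend, a replicate block and each mouse left out. A sequence comparison of transcripts is not reported here.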

Additional observations from a re-analysis of the deposited data

Results flagged for a closer look

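In 82 groups of 6 mice, 8 values stood apart from the other 5 mice by Dixon's criterion, where chance gives about 1 in 20. For Slc39a14-201, control 4 was highest at an FPKM of 60.9, with 10.4 in the next mouse. For Slc30a1 and its only transcript Slc30a1-201, control 1 was lowest at 10.6, with 13.1 next. For Mtf1, PZH 1 was lowest at 2.24, with 3.37 next. For Slc39a14-204, PZH 5 was highest at 2.47, with 1.81 next. For Slc30a5, control 1 was highest at 29.6, with 24.1 next. For Slc30a6, control 5 was lowest at 2.14, with 5.35 next. For Slc31a1, PZH 1 was highest at 61.9, with 54.9 next.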

How the results depend on the processing

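The differences of Mt1 and Mt2 moved by less than the spread between mice under each of 18 alternatives, with -3.12 to -2.67 for Mt1 and -3.61 to -3.13 for Mt2 on the log2 scale. Those of the other 5 genes kept their direction under every alternative run. Median-ratio scaling moved Slc30a1 from -0.38 to -0.19 and Slc39a8 from 0.19 to 0.37, by more than the spread between mice, and by construction it shifts all genes of a mouse together. Under the same scaling Slc30a9 reversed to 0.0234, and within the control group the correlation with Mt1 passed the adjusted threshold for Mt2 (r = 0.96) and Slc30a1 (r = -0.79). Without the 2 mice farthest from the median in Mt1, the r with Mt1 changed sign for Slc30a1 among PZH mice (-0.18) and for Mtf1 (-0.45), Slc39a14 (-0.23) and Slc39a8 (0.38) among control mice, none of which passed with all mice. With the 2-fold criterion and an unadjusted P value the 6358 genes called became 570, and the 13 of 25 zinc and copper genes became 3, which follows from the stricter fold. With each mouse left out in turn, 5597 to 6437 genes and 12 to 14 of the zinc and copper genes passed. Omission of Slc39a14-201 was chosen after seeing the data. Deviations of same-numbered mice had correlations of -0.0784 to 0.0929, so no shared deviation by number was seen. Whether same-numbered mice were handled together is not given in the sources used here. With the mouse number as a replicate block 5982 genes were called, 5703 of them among the 6358. Median-ratio scaling called 5563 genes, of which 4441 were among the 6358. The FPKM of low transcripts rest on few fragments, and 6 of the 19 transcripts had a mean below 1 in both groups.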

Other observations

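The balance of the related importers differed from mouse to mouse. The ratio of the Slc39a14 to the Slc39a8 FPKM was 5.92 to 13.7 in the control mice and 2.65 to 5.98 in the PZH mice, lowest in PZH 1 and highest in control 4. The overlap of the groups was that of PZH 3, at 5.98, with control 3, at 5.92. In control 4 and PZH 3 the transcript Slc39a14-201 was 53.6% and 54.0% of Slc39a14, so both ratios rest on that transcript. Without it Slc39a14 was at 27.0 in PZH 3 and 51.0 in control 3. The summed FPKM of the 17 other zinc transporters was 173 to 211 in the control group and 117 to 137 in the PZH group, without overlap.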
